A study of Mus musculus with 15 samples.

Results

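The p53 pathway was described in mouse fibroblasts through 10 genes: Trp53, which encodes p53, and Mdm2, Cdkn1a, Ccng1, Zmat3, Perp, Trp53inp1, Bbc3, Bax and Sesn2. A probe was taken as a member when the scanner files named it, or bracketed a symbol in its description, as one of these genes, with Wig1 read as Zmat3 and p53 as Trp53. This gave 15 probes for the 10 genes, of 41174 probes for 33124 gene names on the array. All 15 were among the 38518 probes bright enough to be tested. Trp53 had 3 probes, Mdm2, Ccng1 and Trp53inp1 had 2 each, and the other genes had 1. Probes of a gene are numbered from the brightest.

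The series is about fibroblasts of tumours that resist anti-VEGF treatment, which blocks a signal for vessel growth. Fibroblast RNA from 5 sources was labelled with Cy5 and hybridised on 15 arrays, 3 per source, against the Universal Mouse Reference RNA in Cy3. The sources TAF-el4, TAF-tib42 and TAF-tib48 were labelled resistant (9 arrays), and TAF-tib6 and NSF were labelled sensitive (6 arrays). The labels give no strain, age, passage or treatment, and whether replicate arrays came from different cultures or mice is not stated, so the p-values measure the spread between these arrays, which may be technical. The response label thus rests on 3 sources against 2.

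The arrays were numbered in 3 runs of 5 consecutive slides. NSF lay only in run 1 and TAF-tib6 only in run 3, TAF-tib42 lay only in run 2, and TAF-el4 and TAF-tib48 were split between neighbouring runs. A fit with the run as a term was therefore made too, and its value is given where it ended a call or moved a value or count by over 1.5 times. Per array, the median Cy5 intensity was 174.7 to 285.9 units and the median background 52 to 56 units. Precision was limited by how many arrays there were. Arrays of 1 source correlated at 0.96 to 0.99 and arrays of different sources at 0.84 to 0.95. All 10 fibroblast markers looked for, among them Col1a1, Pdgfrb and Thy1, were well above background on all 15 arrays. Col1a1, Col1a2 and Vim had a mean Cy5 intensity of 65290 units, a ceiling of the scan. Col1a1, Col1a2, Col3a1, Pdgfrb, Thy1 and Fn1 were above the reference level in every source mean. Dcn was at -3.03 in TAF-el4, -2.82 in TAF-tib42, -2.76 in TAF-tib48, -1.31 in TAF-tib6 and -0.01 in NSF. Pdgfra was at 0.26, 0.51 and -0.11 in TAF-el4, TAF-tib42 and TAF-tib48, against 0.96 in TAF-tib6 and 1.30 in NSF. Lum (-0.29 to -0.10) was under the reference level in every source mean. Vim read -0.41 to -0.01, but with its Cy5 signal at the ceiling these ratios do not place it under the reference. With Dcn and the probes at the ceiling included, the mean log2 ratio of the list was 0.84 to 0.89 on the TAF-el4 arrays, 0.93 to 1.02 on TAF-tib42, 0.73 to 1.08 on TAF-tib48, 1.24 to 1.30 on TAF-tib6 and 1.31 to 1.45 on NSF. Of the leukocyte and macrophage markers, Ptprc lay between -4.68 and -4.26 on the log2 ratio scale in the 5 source means, while Csf1r (-0.21 to 0.08) and Itgam (0.02 to 0.11) were near the reference level. Of the epithelial markers, Epcam lay between -2.53 and -2.40, and Krt5 (0.06 to 0.16), Krt14 (-0.18 to 0.04) and Cdh1 (-0.16 to -0.09) were near it. The mean of the 5 endothelial markers was 0.68 to 0.72 on the TAF-tib48 arrays, against 0.02 to 0.20 on all other arrays. It was led by Emcn, at 2.04 in TAF-tib48, with Cdh5 at 0.74 and Tek at 0.57. Pecam1 was at -0.03 there, and Kdr was at 0.18, against 0.17 to 0.19 in the other sources. Itgam, Cdh1 and Pecam1 were dim, with mean Cy5 intensities of 122, 93 and 119 units, so a ratio near the reference level says little for them. The mean of the marker list was -1.49 to -1.23 for leukocytes and macrophages, -0.58 to -0.37 for lymphocytes and -1.37 to -1.18 for epithelium over the 15 arrays. Fewer cells of a type and less RNA per cell cannot be told apart in such samples, and the part of other cells in the results was not tested.

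p53 is a transcription factor held at a low level because Mdm2, an E3 ubiquitin ligase and itself a p53 target, marks it for degradation. Stress stabilises the protein, mostly without changing its message, and p53 then binds response elements made of a pair of decamers and raises genes that stop the cell cycle, repair DNA or start cell death. In fibroblasts this response sets growth arrest and senescence. The arrays read messages, so the amount of p53 protein and its activity were not measured.

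Some members are shown here with the stretch just before their start, and whether p53 moved them was not tested. RefSeq promoter windows of the build GRCm38.p6, from 250 bases before to 50 bases after a start site, were given for 7 members in 10 windows, and none was used for Zmat3, Perp and Trp53inp1. The windows were searched on both strands for the p53 decamer motif, which reads the same on either strand, and for pairs of decamers at most 13 bases apart. The 250 bases before the start are printed 5′ to 3′ on the gene's strand, with full decamers in capitals. First come Cdkn1a (chr17:29090729-29090978, plus strand), Mdm2 (chr10:117710759-117711008, minus strand) and Ccng1 (chr11:40755287-40755536, minus strand), whose brightest probes moved together. Mdm2 probe 2 was called in no pair and correlated with Cdkn1a at 0.53 over the 15 arrays, against 0.90 for probe 1. Then come Trp53 (chr11:69580109-69580358, plus strand) and Bax (chr7:45466899-45467148, minus strand), which hardly moved.
Cdkn1a: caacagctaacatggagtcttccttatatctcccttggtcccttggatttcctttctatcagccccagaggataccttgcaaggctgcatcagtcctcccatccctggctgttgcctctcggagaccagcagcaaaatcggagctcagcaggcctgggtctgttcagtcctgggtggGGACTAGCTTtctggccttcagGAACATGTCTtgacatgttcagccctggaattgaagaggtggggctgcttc
Mdm2: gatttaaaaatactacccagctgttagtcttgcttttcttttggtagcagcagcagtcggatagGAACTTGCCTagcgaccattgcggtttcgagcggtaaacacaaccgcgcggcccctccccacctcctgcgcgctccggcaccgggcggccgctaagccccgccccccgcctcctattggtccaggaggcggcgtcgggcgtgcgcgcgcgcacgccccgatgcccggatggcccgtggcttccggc
Ccng1: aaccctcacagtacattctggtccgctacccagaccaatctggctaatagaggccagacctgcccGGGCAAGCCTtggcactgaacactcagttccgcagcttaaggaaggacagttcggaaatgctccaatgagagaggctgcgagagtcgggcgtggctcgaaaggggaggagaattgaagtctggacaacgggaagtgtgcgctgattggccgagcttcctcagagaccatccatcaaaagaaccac
Trp53: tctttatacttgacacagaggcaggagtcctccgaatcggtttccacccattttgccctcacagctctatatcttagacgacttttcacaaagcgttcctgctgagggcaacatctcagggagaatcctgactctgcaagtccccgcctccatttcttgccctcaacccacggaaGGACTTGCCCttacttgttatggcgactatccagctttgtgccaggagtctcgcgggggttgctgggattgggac
Bax: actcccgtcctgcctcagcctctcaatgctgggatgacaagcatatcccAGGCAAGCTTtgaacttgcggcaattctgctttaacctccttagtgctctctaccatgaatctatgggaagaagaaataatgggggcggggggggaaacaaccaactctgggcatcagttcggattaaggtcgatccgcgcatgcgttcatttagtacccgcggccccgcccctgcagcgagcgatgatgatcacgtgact
A full decamer was present in 5 of the 10 member windows and in 8.36% of the 32851 windows searched. Cdkn1a was the member with a complete pair, matching 20 of 20 letters with 12 bases between its decamers. The pair began at position -73 from the upstream of the gene's 2 start sites. Only 0.0731% of all windows held such a pair. Just the best pair of a window was kept. In Cdkn1a the second decamer is followed with no gap by tgacatgttc, which departs from the motif in its first letter alone. In Bax the best pair matched 18 letters (as many in 2.12% of windows), and in Trp53 and the first Bbc3 window 17 letters (6.72%). Mdm2 and Ccng1 each had a single decamer. No full decamer was present in the windows of Sesn2 and Bbc3 or in the second window of Cdkn1a. In mouse Mdm2 the known p53 elements lie in the first intron, outside this window. A match is a description of letters and not evidence of binding.

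The 5 sources differed little in the message of p53 itself and by up to 2.86-fold in its targets. With limma's F-test over all probes and Benjamini-Hochberg adjustment, 11 of the 15 probes differed among the sources, against 43.4% of all probes tested. The 4 that were not called were Trp53 probe 2, Trp53 probe 3, Mdm2 probe 2 and Sesn2. The distance from the highest to the lowest source mean was 1.52 log2 units for Zmat3, 1.34 for Ccng1 probe 1, 1.31 for Perp, 1.17 for Trp53inp1 probe 1, 1.09 for Cdkn1a and 1.01 for Mdm2 probe 1. Over all probes tested the median distance was 0.16, and the median SD within a source 0.06. For Zmat3, Ccng1, Cdkn1a, Trp53inp1 and both Mdm2 probes the lowest source was TAF-tib42.

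**Figure D1:**
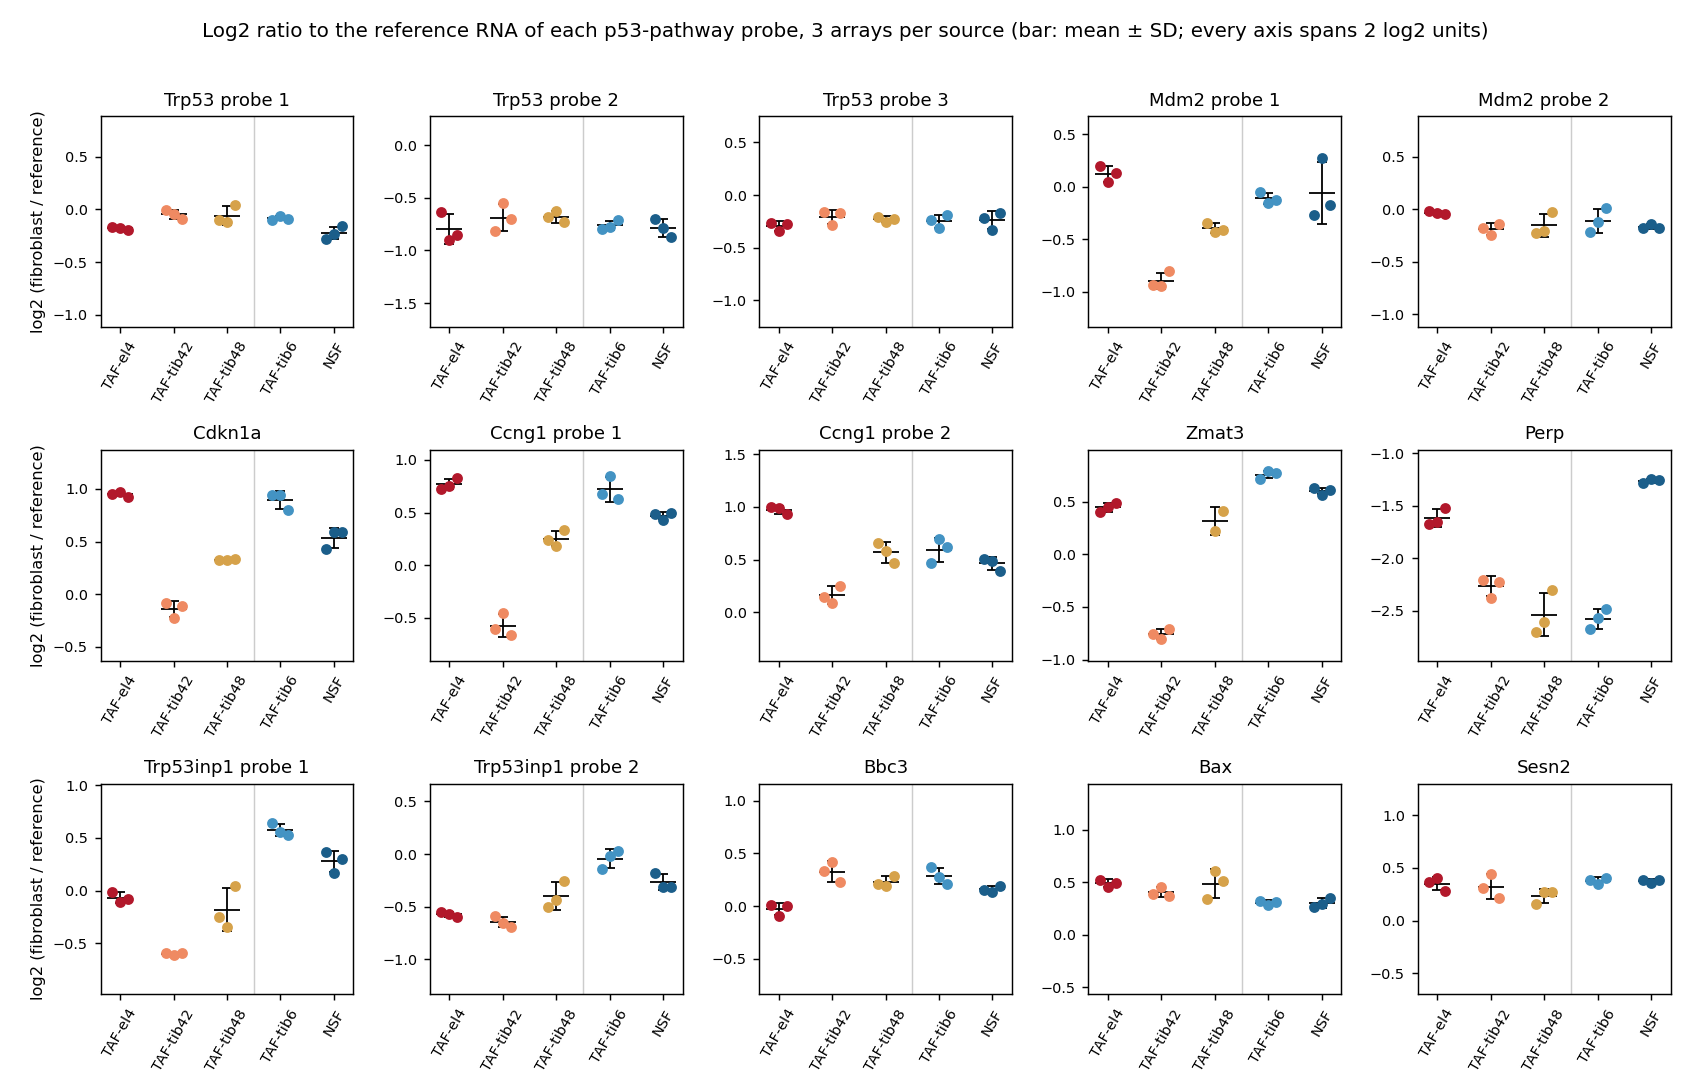
Log2 ratio of fibroblast to reference RNA (y axis) for each of the 15 member probes, with 1 point per array, by source (x axis). Bars are the source mean ± SD, every y axis spans the same 2 log2 units, and the grey line separates resistant sources, on the left, from sensitive ones. Trp53 is nearly level, while Zmat3, Ccng1 probe 1, Cdkn1a and Mdm2 probe 1 are lowest in TAF-tib42.

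Trp53 probe 1 was the brightest probe of the p53 gene, with a Cy5 intensity of 3766 to 4648 units in the source means. Its log2 ratios were -0.16, -0.18 and -0.19 in TAF-el4, 0.00, -0.05 and -0.09 in TAF-tib42, and -0.10, -0.12 and 0.05 in TAF-tib48. They were -0.10, -0.07 and -0.09 in TAF-tib6 and -0.28, -0.23 and -0.16 in NSF. Every source thus lay just under the reference RNA, NSF lowest and TAF-tib42 highest, and all neighbours in that order missed the threshold. In the limma fit, TAF-tib42 exceeded NSF by 0.18 ± 0.05 (SE; 1.13-fold, adjusted p = 0.0109) and TAF-tib48 exceeded NSF by 0.16 ± 0.05 (adjusted p = 0.0167), with no overlap of arrays in either pair. Both calls were lost with the slide run in the model (adjusted p = 0.212 and 0.498). Among the 10 pairs of sources no other difference of this probe was called.

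Trp53 probe 2 was dimmer, at 264.5 to 333.2 units, and its source means ran from -0.79 in TAF-el4 to -0.68 in TAF-tib48. It was called in none of the 10 pairs, and the adjusted p of its F-test was 0.432. Trp53 probe 3 was designed on a sequence described as a p53 variant, which the files place on chromosome 17, where RefSeq lists the pseudogene Trp53-ps, while Trp53 itself is on chromosome 11. At 105.9 to 124.1 units it was the dimmest member probe, over a background of 52 to 56 units, though marked well above background on all 15 arrays. Its source means lay between -0.29 and -0.20 (F-test adjusted p = 0.592).

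Cdkn1a encodes p21, the cyclin-dependent kinase inhibitor through which p53 stops the cell cycle. Its log2 ratios were 0.96, 0.97 and 0.93 in TAF-el4, -0.09, -0.23 and -0.11 in TAF-tib42, and 0.32, 0.33 and 0.34 in TAF-tib48. They were 0.95, 0.94 and 0.80 in TAF-tib6 and 0.43, 0.59 and 0.59 in NSF. TAF-tib42 was the only source with every array under the reference level, and its arrays did not overlap those of any other source. TAF-tib48 was next, NSF stood above it, and TAF-el4 and TAF-tib6, which carry opposite labels, shared the highest level and did not differ in the test (adjusted p = 0.531, difference 0.06 with a 95% interval from -0.06 to 0.17).

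In the limma fit, Cdkn1a was lower in TAF-tib42 than in TAF-tib6 by 1.04 ± 0.05 log2 units (SE; 2.05-fold, adjusted p = 5.13e-11). Against NSF the difference was -0.68 ± 0.05 (adjusted p = 2.05e-08), and TAF-el4 exceeded TAF-tib42 by 1.09 ± 0.05 (adjusted p = 2.26e-11). TAF-tib48 was lower than TAF-tib6 by 0.57 ± 0.05 (adjusted p = 2.55e-07) and than NSF by 0.21 ± 0.05 (adjusted p = 0.00796). TAF-tib6 exceeded NSF by 0.36 ± 0.05 (adjusted p = 0.000148). The slide run as a term ended the calls of TAF-tib48 against NSF (adjusted p = 0.46) and of TAF-tib6 against NSF (0.237), while every pair with TAF-tib42 stayed called.

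Ccng1 encodes cyclin G1, which brings a phosphatase to Mdm2 and so feeds back on p53. Probe 1 read 0.73, 0.76 and 0.82 in TAF-el4, -0.61, -0.45 and -0.66 in TAF-tib42 and 0.24, 0.19 and 0.33 in TAF-tib48. It read 0.68, 0.85 and 0.63 in TAF-tib6 and 0.49, 0.43 and 0.49 in NSF. The order of the sources was that of Cdkn1a, with TAF-tib42 again apart from all others. TAF-tib42 was lower than TAF-tib6 by 1.29 ± 0.06 (SE; 2.45-fold, limma adjusted p = 1.35e-11) and than NSF by 1.04 ± 0.06 (adjusted p = 2.75e-10).

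Ccng1 probe 2 had the same lowest and highest source and smaller differences in the pairs with TAF-tib42. Its source means were 0.97 in TAF-el4, 0.16 in TAF-tib42, 0.57 in TAF-tib48, 0.59 in TAF-tib6 and 0.46 in NSF. The limma difference of TAF-tib42 from TAF-tib6 was -0.43 ± 0.06 (adjusted p = 3.5e-05), and the difference from NSF was -0.30 ± 0.06 (adjusted p = 0.00128). The difference from NSF was not called with the slide run in the model (adjusted p = 0.23). The probes disagreed on TAF-el4 against TAF-tib6: it was called for probe 2 (0.38, adjusted p = 0.000155; 0.454 with the slide run) and not for probe 1 (0.05, adjusted p = 0.642).

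Zmat3, listed in the files as Wig1, encodes a zinc finger protein that binds RNA and was found as a gene induced by p53. It read 0.41, 0.45 and 0.49 in TAF-el4, -0.76, -0.81 and -0.71 in TAF-tib42, and 0.23 and 0.41 in TAF-tib48, where the scanner marked the remaining spot as an outlier and it was left out (n = 2). It read 0.72, 0.79 and 0.77 in TAF-tib6 and 0.63, 0.57 and 0.61 in NSF. TAF-tib42 was more than 1 log2 unit under every other source in its mean. Each of the 3 resistant sources was also lower than both sensitive ones, with no overlap of arrays.

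The limma difference of TAF-tib42 from TAF-tib6 was -1.52 ± 0.05 (SE; 2.86-fold, adjusted p = 1.67e-13), the widest of any member pair. From NSF it was -1.36 ± 0.05 (adjusted p = 8.28e-13). TAF-el4 was lower than TAF-tib6 by 0.31 ± 0.05 (adjusted p = 0.000144) and than NSF by 0.15 ± 0.05 (adjusted p = 0.0367), and TAF-tib48 was lower than TAF-tib6 by 0.44 ± 0.05 (adjusted p = 1.01e-05) and than NSF by 0.28 ± 0.05 (adjusted p = 0.000829). With the slide run in the model, the calls of TAF-el4 and TAF-tib42 against NSF and of TAF-tib48 against TAF-tib6 were kept. The calls of TAF-el4 and TAF-tib42 against TAF-tib6 and of TAF-tib48 against NSF could not be adjusted for the run. The spot left out, TAF-tib48 replicate 1, is the only link of run 3 to the other runs. The call of TAF-el4 against NSF was lost without 1 of several single arrays, with the highest adjusted p, 0.143, without TAF-el4 replicate 1.

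Mdm2 was read by a bright and a dim probe, and the dim one did not show the differences of the bright one. Probe 1 read 0.19, 0.04 and 0.13 in TAF-el4, -0.93, -0.94 and -0.80 in TAF-tib42 and -0.34, -0.43 and -0.41 in TAF-tib48. It read -0.05, -0.16 and -0.13 in TAF-tib6 and -0.27, 0.28 and -0.18 in NSF. TAF-tib42 was lowest with no overlap, and TAF-tib48 was next. NSF replicate 2 stood apart, and on that array the spot was not well above background in either colour.

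By limma, Mdm2 probe 1 was lower in TAF-tib42 than in TAF-tib6 by 0.78 ± 0.09 (SE; 1.72-fold, adjusted p = 4.36e-06) and than in NSF by 0.83 ± 0.09 (adjusted p = 1.89e-06). Without NSF replicate 2 the difference from NSF was -0.67 (adjusted p = 1.32e-07). On the same terms, TAF-el4 was above NSF by 0.35 (adjusted p = 0.000331) and above TAF-tib6 by 0.23 (adjusted p = 0.00324), pairs that were not called with all arrays, and TAF-tib48 was below NSF by 0.17 (adjusted p = 0.0472; 0.34 and 0.0123 with all arrays, and 0.29 and 0.485 with the slide run). TAF-tib48 was below TAF-tib6 by 0.28 (adjusted p = 0.0348; 0.0596 with the slide run). Mdm2 probe 2, at 273.4 to 316.5 units, had source means of -0.03 in TAF-el4, -0.19 in TAF-tib42, -0.15 in TAF-tib48, -0.11 in TAF-tib6 and -0.17 in NSF, and was called in no pair.

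**Figure D2:**
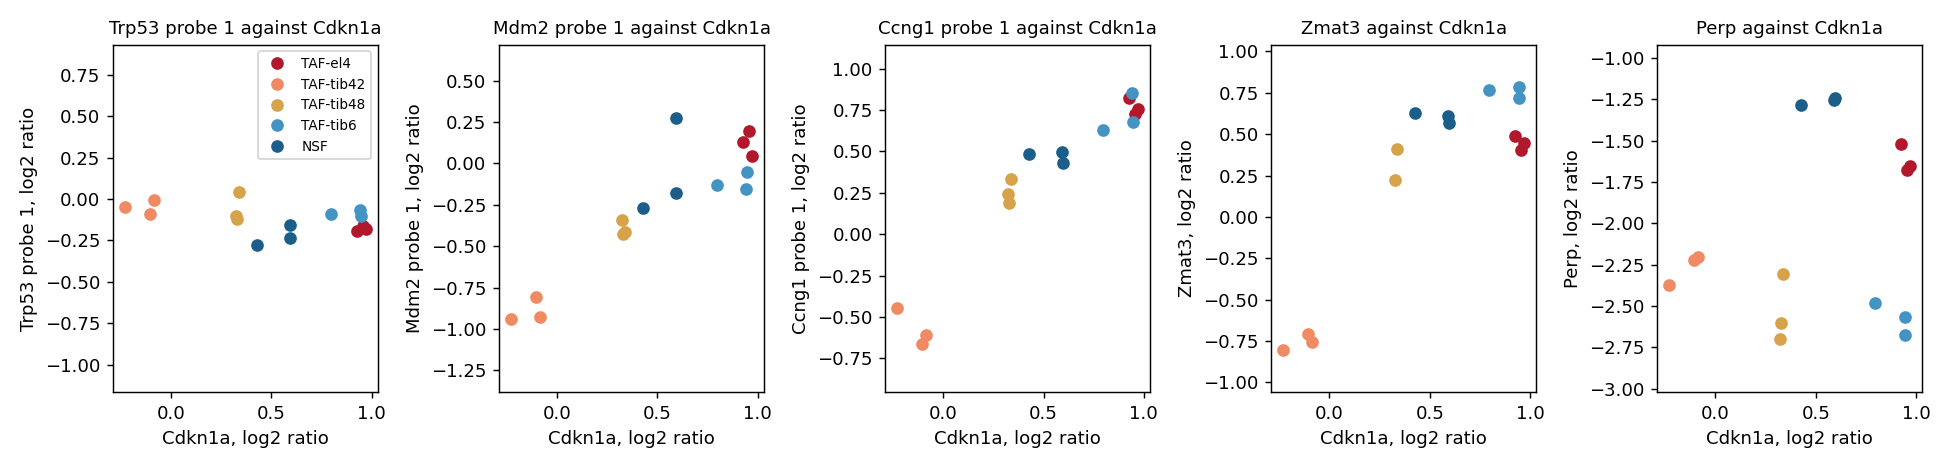
Log2 ratio of Trp53 probe 1, Mdm2 probe 1, Ccng1 probe 1, Zmat3 and Perp (y axes, each spanning the same 2.1 log2 units) against that of Cdkn1a (x axis), with 1 point per array coloured by source. The TAF-tib42 arrays are at the low end for Cdkn1a, Mdm2, Ccng1 and Zmat3, while Trp53 runs flat and Perp follows another order.

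Mdm2 probe 1, Cdkn1a, Ccng1 probe 1 and Zmat3 were set together after their values were seen, so their counts describe them and test nothing. Their pairs of TAF-tib42 with the 4 other sources made 16 comparisons, all called as lower in TAF-tib42. They stayed called without any 1 array, under the other 6 settings tried, and with the slide run in the model. For Zmat3 against TAF-tib6 and TAF-tib48, though, the run could not be adjusted for in that fit. The second probes did not share this: Mdm2 probe 2 was called in no pair, and Ccng1 probe 2 against NSF was not called with the slide run. Slide run 2 holds 3 TAF-tib42 arrays and a single array of TAF-el4, and within it that array exceeded the TAF-tib42 mean by 1.02 for Mdm2 probe 1, 1.07 for Cdkn1a, 1.40 for Ccng1 probe 1 and 1.25 for Zmat3, values with no measured spread for TAF-el4. With the slide run in the model, the difference between these sources rests on that same array. The differences of TAF-tib42 from NSF in that model rest on it too. Except for Zmat3, those from TAF-tib48 and TAF-tib6 rest on TAF-tib48 replicate 1.

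Trp53inp1 encodes a nuclear stress protein that promotes p53 phosphorylation and cell death. Probe 1 read -0.01, -0.11 and -0.08 in TAF-el4, -0.59, -0.61 and -0.59 in TAF-tib42, and -0.25, -0.34 and 0.05 in TAF-tib48. It read 0.64, 0.55 and 0.53 in TAF-tib6 and 0.37, 0.17 and 0.30 in NSF. Every resistant array was lower than every sensitive one. By limma the differences from TAF-tib6 were -0.64 ± 0.07 in TAF-el4, -1.17 ± 0.07 in TAF-tib42 and -0.76 ± 0.07 in TAF-tib48, and those from NSF were -0.35, -0.88 and -0.46, with adjusted p-values between 8.03e-10 and 0.00212 over the 6 pairs.

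Under the slide run as a term, 4 of these 6 pairs of Trp53inp1 probe 1 stayed called. TAF-el4 against TAF-tib6 had an adjusted p of 0.0562 and TAF-tib48 against NSF 0.0719. Probe 2 was dimmer, at 139.9 to 294.7 units, and its source means were -0.57 in TAF-el4, -0.64 in TAF-tib42, -0.40 in TAF-tib48, -0.04 in TAF-tib6 and -0.27 in NSF. The order of the 2 response classes was the same as for probe 1. The limma test called 5 of the 6 pairs of probe 2, and TAF-tib48 against NSF was missed (adjusted p = 0.127). The slide run ended the calls of TAF-el4 against TAF-tib6 (adjusted p = 0.0744) and of TAF-tib42 against NSF (0.0667).

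Perp encodes a membrane protein of cell junctions that acts in p53-driven death, and it followed an order of its own. It read -1.68, -1.66 and -1.52 in TAF-el4, -2.20, -2.38 and -2.22 in TAF-tib42 and -2.70, -2.60 and -2.30 in TAF-tib48. It read -2.67, -2.57 and -2.48 in TAF-tib6 and -1.28, -1.25 and -1.26 in NSF. NSF was highest, above all TAF arrays, and TAF-tib48 and TAF-tib6 shared the lowest level (adjusted p = 0.767).

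In the limma fit, Perp was lower than in NSF by 0.36 ± 0.08 in TAF-el4, 1.0 ± 0.08 in TAF-tib42, 1.27 ± 0.08 in TAF-tib48 and 1.31 ± 0.08 in TAF-tib6 (SE; adjusted p between 4.96e-10 and 0.00277). It was higher than in TAF-tib6 by 0.96 ± 0.08 in TAF-el4 (adjusted p = 5.71e-08) and by 0.31 ± 0.08 in TAF-tib42 (adjusted p = 0.00707; 0.55 with the slide run, adjusted p = 0.00931). All 6 calls were kept with the slide run in the model. The Cy5 signal of the probe, 178.6 to 545.7 units, was well above background on all 15 arrays.

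Bbc3 and Bax, death genes of the Bcl-2 family, had narrower ranges over the sources, 0.36 and 0.19 log2 units. Bbc3 encodes PUMA, a BH3-only protein through which p53 starts apoptosis, and its source means were -0.03 ± 0.06 in TAF-el4, 0.33 ± 0.10 in TAF-tib42, 0.23 ± 0.05 in TAF-tib48, 0.28 ± 0.08 in TAF-tib6 and 0.16 ± 0.02 in NSF (SD, n = 3 each). TAF-el4 was lowest with no overlap, and by limma it was below TAF-tib6 by 0.31 (adjusted p = 0.000235; 0.255 with the slide run) and below NSF by 0.19 (adjusted p = 0.0159). TAF-tib42 was above NSF by 0.17 (adjusted p = 0.0282; 0.538 with the slide run). Bbc3 had its highest mean in TAF-tib42, where Cdkn1a had its lowest.

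Bax encodes the protein that opens the mitochondrial outer membrane. Its source means were 0.49 ± 0.04 in TAF-el4, 0.40 ± 0.05 in TAF-tib42, 0.49 ± 0.14 in TAF-tib48, 0.30 ± 0.02 in TAF-tib6 and 0.30 ± 0.04 in NSF (SD, n = 3 each). TAF-el4 and TAF-tib48 exceeded each of TAF-tib6 and NSF by 0.18 to 0.19 in the limma fit (adjusted p between 0.0192 and 0.0227). Each of these 4 calls was lost without 1 or another single array, the highest adjusted p being 0.143 without TAF-tib48 replicate 2. With the slide run the differences from TAF-tib6 were 0.42 in TAF-el4 and 0.26 in TAF-tib48, and that of TAF-tib48 from NSF was 0.02 (adjusted p = 0.923). TAF-tib42 against TAF-tib6 was called only with the slide run (0.32, limma adjusted p = 0.017), and was 0.10 without it (adjusted p = 0.215). Sesn2 encodes a sestrin that restrains mTORC1 under stress, and its source means stayed between 0.23 in TAF-tib48 and 0.38 in TAF-tib6, with no pair called.

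**Figure D3:**
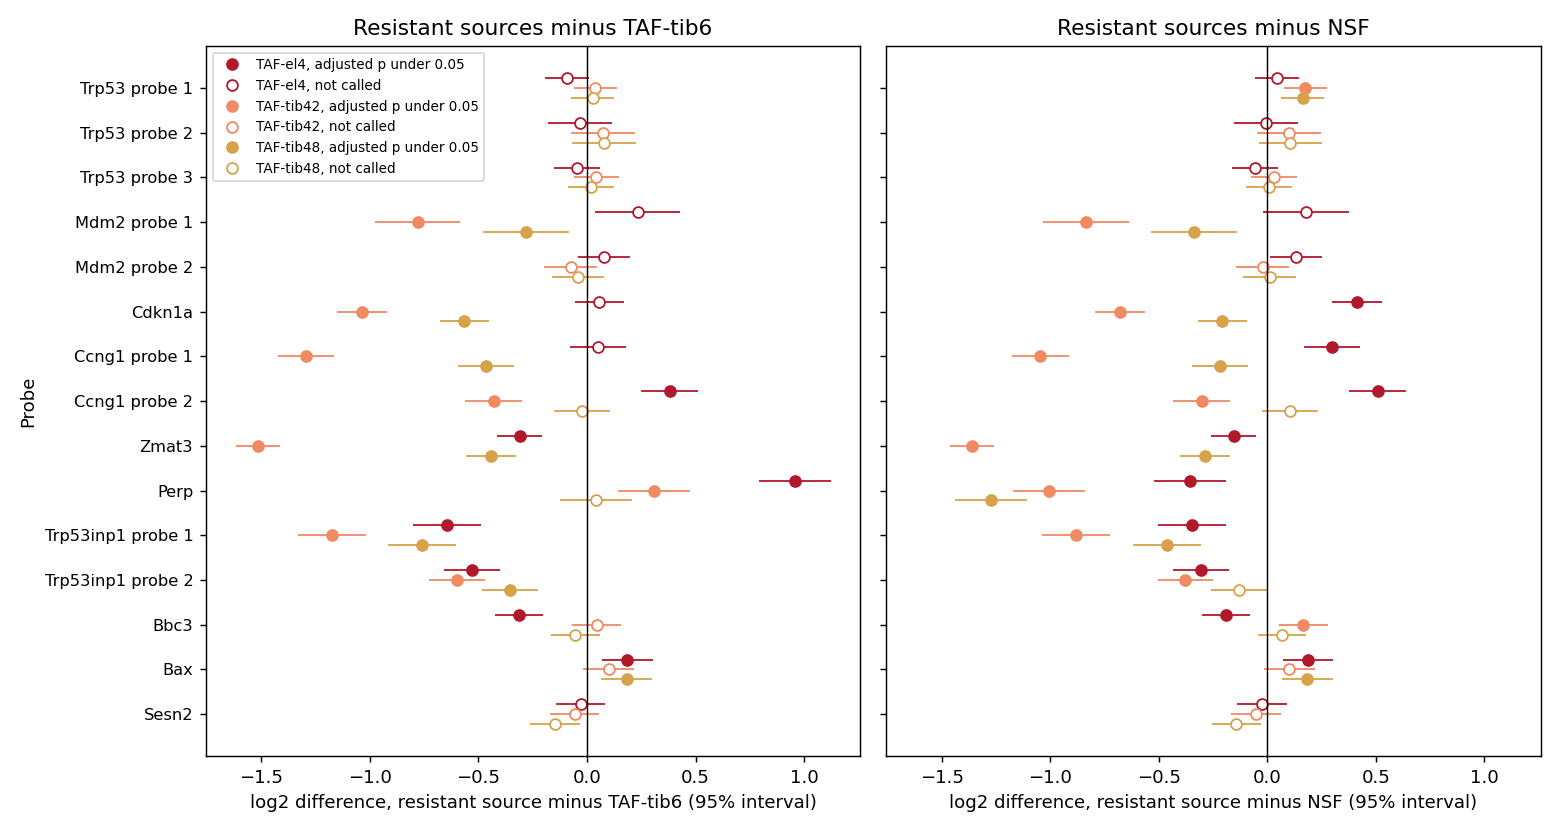
Log2 difference (x axis, point with its 95% interval) of each resistant source from TAF-tib6 (left) and from NSF (right) for the 15 member probes (y axis). Filled points have an adjusted p under 0.05. TAF-tib42 is farthest left for Zmat3, Ccng1 probe 1, Cdkn1a and Mdm2 probe 1, and all 3 resistant sources are left of 0 for Trp53inp1.

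Called member probes were counted for each pair, beside the share of all probes called. TAF-tib42 differed from TAF-tib6 in 8 of 15 probes (24.8% of all probes), with 1 higher and 7 lower (12.2% and 12.6% of all probes). It differed from NSF in 10 probes (24.2%), with 2 higher and 8 lower (11.2% and 13%). TAF-tib48 differed from TAF-tib6 in 7 probes (24.8%), with 1 higher and 6 lower (12.3% and 12.5%). Its difference from NSF was called in 8 probes (26.5%), with 2 higher and 6 lower (12.5% and 14.1%). TAF-el4 differed from TAF-tib6 in 7 probes (20.6%), with 3 higher and 4 lower (11.6% and 8.95%). Against NSF it differed in 9 probes (17.4%), with 4 higher and 5 lower (8.88% and 8.54%). These pairs share TAF-tib6 or NSF as their second source, and probes of 1 gene share its message.

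Sources of 1 label also differed from each other. TAF-el4 differed from TAF-tib42 in 8 probes (23.1%), with 7 higher and 1 lower (13.2% and 9.93%). From TAF-tib48 it differed in 7 probes (23.6%), with 5 higher and 2 lower (13.5% and 10.1%). TAF-tib42 differed from TAF-tib48 in 8 probes (14.2%), with 1 higher and 7 lower (6.5% and 7.66%). TAF-tib6 differed from NSF in 5 probes (11%), with 4 higher and 1 lower (4.41% and 6.63%). Of the 77 calls over the 10 pairs, 52 stayed called with the slide run in the model. Among the 52 were Zmat3 pairs in which the run could not be adjusted for. For TAF-tib6 against NSF, 1 call of 5 stayed, that of Perp.

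Resistant and sensitive sources were compared over their 5 source means, 3 against 2. No member probe was called after adjustment over all probes, and 1 probe of the 38518 was (0.0026%). At an unadjusted limma p under 0.05, which 9.52% of all probes passed, the members were Trp53inp1 probe 1 (-0.71 ± 0.18, adjusted p = 0.361), Trp53inp1 probe 2 (-0.38 ± 0.10, adjusted p = 0.374) and Bax (0.16 ± 0.05, adjusted p = 0.398; log2 differences ± SE). The source means of the classes did not overlap for 5 of the 15 probes, namely Zmat3, both Trp53inp1 probes and Sesn2, lower in resistant sources, and Bax, higher in them. Such a gap was present for 27.1% of all probes, 12.8% lower and 14.3% higher in resistant sources.

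The wide spread among resistant sources showed in the class means. Cdkn1a averaged 0.38 ± 0.55 in resistant sources and 0.72 ± 0.25 in sensitive ones (SD over 3 and 2 source means), and the difference was -0.34 ± 0.33 (SE, limma adjusted p = 0.796). Zmat3 averaged 0.00 ± 0.66 in resistant sources and 0.68 ± 0.11 in sensitive ones, with a difference of -0.68 ± 0.38 (adjusted p = 0.644). Within the resistant class TAF-el4 had higher means than both sensitive sources for Cdkn1a and Ccng1, and TAF-tib42 had lower ones. No gene of the 6 lists of p53-related genes was called for resistant against sensitive.

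The regulators of p53 were looked at next, and whether its targets follow them was not tested. Of 20 listed, 18 had a tested probe. TAF-tib42 was higher than TAF-tib6 in 3 and lower in 3 (median difference 0.01), against 12.2% and 12.6% of all probes. With the slide run it was 1 and 2, against 4.78% and 4.97%. Cdkn2a, whose locus encodes p16Ink4a and the Mdm2 antagonist p19Arf, stood out. It read 0.27, 0.55 and 0.40 in TAF-el4, -1.89, -1.80 and -2.14 in TAF-tib42 and -0.55, -0.30 and 0.04 in TAF-tib48. It read 1.12, 0.94 and 0.91 in TAF-tib6 and 0.05, 0.24 and 0.30 in NSF. TAF-tib42 lay far below all other sources. Its difference from TAF-tib6 was -2.93 ± 0.12 (SE, limma adjusted p = 9.73e-13) and from NSF -2.14 ± 0.12 (adjusted p = 9.14e-11). The probe was not assigned to 1 of the 2 products. Against TAF-tib6 the value with the slide run was -2.51 (adjusted p = 1.61e-07).

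The other regulators with the widest called differences between TAF-tib42 and TAF-tib6 were Trp63, a p53 family member (-0.49, limma adjusted p = 7.5e-06), the ribosomal protein gene Rpl5 (0.33, adjusted p = 0.00103) and the ubiquitin ligase gene Cop1 (-0.24, adjusted p = 0.00335). The slide run ended the calls of Rpl5 (adjusted p = 0.0708) and Cop1 (0.256). In TAF-tib48 against TAF-tib6, 2 regulators were higher and 3 lower (12.3% and 12.5% of all probes), with Cdkn2a at -1.26 (adjusted p = 1.84e-07). In TAF-el4 against TAF-tib6, 2 were higher and 3 lower (11.6% and 8.95%), and 0 and 1 with the slide run (3.43% and 2.01%). There Cdkn2a was at -0.58 (adjusted p = 0.00122), and at -0.16 with the slide run (adjusted p = 0.782).

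Further p53 targets were taken by function, the brightest probe standing for each gene. Among 13 other arrest and signalling targets, TAF-tib42 was higher than TAF-tib6 in 2 and lower in 7 (median -0.15), while over all probes 12.2% were higher and 12.6% lower. The widest were Phlda3, an inhibitor of Akt signalling (-0.80, limma adjusted p = 3.75e-10), Ptprv (-0.57, adjusted p = 5.33e-06), the antiproliferative gene Btg2 (-0.50, adjusted p = 2.82e-05; 0.067 with the slide run) and the kinase gene Plk3 (-0.43, adjusted p = 0.0003). Gadd45a, a gene of the stress response, was higher, at 0.40 (limma adjusted p = 2.06e-05), but not with the slide run (0.22, adjusted p = 0.149). Plk2 also had a higher mean in TAF-tib42 (0.97) than in TAF-tib6 (0.56). Under the slide run as a term, 1 gene was called higher and 4 lower, while over all probes 4.78% were higher and 4.97% lower.

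In the other resistant sources the arrest targets took other directions. TAF-el4 was higher than TAF-tib6 in 7 and lower in 3 (median 0.18), with Ckap2 (0.90), E2f7 (0.81), Gtse1 (0.57) and Gdf15 (0.52) the widest (limma adjusted p between 6.23e-08 and 6.61e-05). Over all probes 11.6% were higher and 8.95% lower. The slide run left 3 called higher and 1 lower (3.43% and 2.01% of all probes), and Gtse1 was not called (adjusted p = 0.0696). TAF-tib48 was higher in 5 and lower in 5 (median -0.01), with Gadd45a (0.51), Ptprv (-0.49), Btg2 (-0.46) and Plk2 (0.45) the widest, against 12.3% and 12.5% of all probes. With the slide run 4 were higher and 3 lower (10.9% and 10.7% of all probes). In TAF-el4 against TAF-tib6, 31 of 33 cell cycle genes were called higher too (11.6% of all probes), and 17 with the slide run (3.43%). Any link between them and these arrest targets was not tested.

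Among 13 tested of 14 other death targets, TAF-tib42 was higher than TAF-tib6 in 1 and lower in 4 (median -0.07; 12.2% and 12.6% of all probes), and in 1 and 2 with the slide run (4.78% and 4.97%). The called genes of largest size were Rps27l, a ribosomal protein gene induced by p53 (-0.63, limma adjusted p = 3.12e-06), Pmaip1, which encodes the BH3-only protein NOXA (-0.60, adjusted p = 2.5e-08), Shisa5 (0.46, adjusted p = 0.000148) and Aen (-0.20, adjusted p = 0.0403; 0.678 with the slide run). Fas, the death receptor gene, was lower than in TAF-tib6 by 0.80 in TAF-el4 (adjusted p = 2.66e-06; -0.43 and 0.168 with the slide run) and by 0.94 in TAF-tib48 (adjusted p = 2.64e-07), and its difference in TAF-tib42 was -0.05 (not called). In TAF-el4, 3 of these genes were higher and 1 lower (11.6% and 8.95% of all probes). The slide run left 1 and 0 (3.43% and 2.01%). In TAF-tib48 none was higher and 3 were lower (12.3% and 12.5%), with the slide run too (10.9% and 10.7%).

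Among 13 tested of 15 repair and metabolism targets, TAF-tib42 was higher than TAF-tib6 in 2 and lower in 6 (median -0.16; 12.2% and 12.6% of all probes). With the slide run it was 1 and 2, against 4.78% and 4.97% of all probes. The widest were Polk, a translesion polymerase gene (-0.44, limma adjusted p = 6.45e-06), Tigar, which slows glycolysis (0.42, adjusted p = 2.05e-05), Lpin1 (-0.33, adjusted p = 8.37e-05) and Dram1 (-0.24, adjusted p = 0.00985; -0.04 and 0.857 with the slide run). TAF-el4 was higher in 2 and lower in 3 (11.6% and 8.95%), and in 1 and 2 with the slide run (3.43% and 2.01%). TAF-tib48 was higher in 2 and lower in 3 (12.3% and 12.5%). Of 13 other Bcl-2 family genes, 12 were tested. TAF-tib42 was higher in 2, Bid (0.52) and Bok (0.47), and lower in 2, Bcl2l2 (-0.17) and Bcl2l11 (-0.12), against 12.2% and 12.6% of all probes. With the slide run Bid alone was called, as higher, against 4.78% higher and 4.97% lower over all probes. Bok was higher than in TAF-tib6 in all 3 resistant sources (0.95 in TAF-el4, 0.77 in TAF-tib48), and in TAF-tib42 the slide run ended its call (adjusted p = 0.127).

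Cell cycle genes are lowered by p53 through p21. Of 33 tested of 34 listed, 31 were higher than in TAF-tib6 in TAF-el4 (median 0.79; 11.6% of all probes), 20 were higher and 1 lower in TAF-tib42 (median 0.29; 12.2% and 12.6%), and 19 were higher in TAF-tib48 (median 0.34; 12.3%). Against NSF, 31 were higher in TAF-el4 (8.88% of all probes) and 18 in TAF-tib48 (12.5%). In TAF-tib42, 13 were higher than in NSF and 2 lower (11.2% and 13%). The TAF-tib48 arrays differed among themselves, with list means of -0.93, -0.80 and -1.30, and the lowest, replicate 3, was level with NSF (-1.30 to -1.27). Without it, 28 genes were called higher in TAF-tib48 against TAF-tib6 and 28 against NSF, and without replicate 2 the counts were 15 and 10. Rrm2 (1.47), Cdc20 (1.34), Cenpa (1.21) and Kif20a (1.15) were widest in TAF-el4, and Nek2 (0.68), Plk1 (0.55), Top2a (0.55) and Cenpa (0.51) in TAF-tib42 (limma adjusted p between 1.01e-08 and 0.00238). Cdkn1a, which encodes the inhibitor of this programme, was highest in TAF-el4 (0.95) and TAF-tib6 (0.90), with no difference called (limma adjusted p = 0.531). The cell cycle list means were -0.61 to -0.57 on the TAF-el4 arrays and -1.37 to -1.34 on the TAF-tib6 arrays. After the slide run term, 17 genes were called higher than in TAF-tib6 in TAF-el4 (3.43% of all probes) and 16 in TAF-tib48 (10.9%). In TAF-tib42, 2 were higher and 1 lower (4.78% and 4.97%). Against NSF, 31 were higher in TAF-el4 (7.33%) and 1 in TAF-tib48 (2.11%), while 0 were higher and 1 lower in TAF-tib42 (2.4% and 5.35%). Plk1 (adjusted p = 0.162) and Cenpa (0.411) were not called in TAF-tib42 against TAF-tib6 with the slide run.

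The genes most like Cdkn1a over the 15 arrays, of 15435 compared, were H2bc12 (Pearson r 0.97), Pdrg1 (0.97), H2bc14 (0.97) and Traf4 (0.97). Those most like Trp53 probe 1 were Lrch1 (0.93), Plekhn1 (0.90), Dppa2 (0.88) and Dnm2 (0.88). The 15 arrays fall into 5 sources and share 1 reference RNA, so that these values rest on 5 levels.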

How the data were processed

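RNA of 5 fibroblast sources was read on 15 Agilent mouse arrays of 2 colours, each with fibroblast RNA in Cy5 and reference RNA in Cy3, per the labels. The deposited scanner files hold the Cy5 and Cy3 intensity of each spot, its background, quality flags (score 0 or 1, as deposited) and a log10 ratio of red over green. Per the file headers, spots were read with Agilent Feature Extraction 8.5.1.1, and a protocol label names version 9.5. The authors' deposited table holds log2 ratios that match the scanner's own ratio (slope 1, correlation 1), with column medians of 0.0337 to 0.0511.

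Mean intensities were corrected with normexp (offset 50) and loess within each array in limma 3.58.1 (R 4.3.3), with control spots at weight 0 and spots marked as outliers left out. The offset shrinks ratios of dim probes. Spots of a probe were averaged, and probes were kept apart. A probe was tested when well above background in Cy5 on all 3 arrays of a source and usable on at least 2 arrays of every source. A single limma fit of all 15 arrays gave the 10 pairs and the F-test, and a fit of 5 source means gave resistant against sensitive. Adjusted p-values are Benjamini-Hochberg over 38518 probes, with calls under 0.05. Of the 41174 probes, 22072 were named by accession through RefSeq, 3064 by description and 16038 kept the file's name.

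Every member probe was named. In each list the 4 called genes of largest difference in a described comparison were named, the brightest probe standing for a gene. Gadd45a, Plk2 and Fas in TAF-tib42 were added after their values were seen. Members and lists were chosen with earlier results of these data known. Lists were 6 sets of p53-related genes (regulators, arrest, death, repair and metabolism targets, Bcl-2 family and cell cycle genes) and markers of fibroblasts, leukocytes, lymphocytes, endothelium and epithelium. Arrays of equal replicate number did not deviate together, so none were paired. Alternatives were other background, scaling, ratio and filter settings, slide run or replicate number as blocks, and arrays or sources left out. Single arrays left out and fits within a slide run were chosen after seeing the data.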

Additional observations from a re-analysis of the deposited data

How the results depend on the processing

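The slide run as a block moved more counts than any other setting, and TAF-tib42, TAF-tib6 and NSF each lay in 1 run. It gave 2096 called probes for TAF-el4 against TAF-tib6 (3 members), 3755 for TAF-tib42 against TAF-tib6, 2983 for TAF-tib42 against NSF (6 members), 2480 for TAF-tib48 against NSF (2), 508 for TAF-tib6 against NSF (1), 5379 for TAF-el4 against TAF-tib42, 3419 for TAF-el4 against TAF-tib48 (3) and 3081 for TAF-tib42 against TAF-tib48. The unblocked counts were 7919, 9548, 9306, 10217, 4249, 8904, 9098 and 5452. Within run 2 the counts were 5168 for TAF-el4 against TAF-tib42, 3419 for TAF-el4 against TAF-tib48 (4 members) and 3025 for TAF-tib42 against TAF-tib48, and within run 3 TAF-tib48 against TAF-tib6 gave 6345, from fewer arrays. Run 2 holds 1 array of TAF-el4 and 1 of TAF-tib48, whose spread was assumed to be that of the 3 TAF-tib42 arrays, so these counts have no measured spread for either source. Median centring in place of loess gave 7494 probes and 3 members for TAF-tib6 against NSF, and turned Mdm2 probe 1 in TAF-tib48 against NSF to 0.036 (adjusted p = 0.88), where the NSF replicate 2 spot is dim. It moved the share of calls that were higher to 38.1% from 51% for TAF-el4 against NSF, to 33.5% from 46.9% for TAF-tib48 against NSF, and for TAF-el4 to 67.3% from 57.1% against TAF-tib42 and 67.5% from 57.3% against TAF-tib48. With the slide run block the shares against NSF were 31% from 46.4% (TAF-tib42), 32.8% from 46.9% (TAF-tib48) and 26.2% from 39.9% (TAF-tib6). Without background subtraction 0 probes were called for resistant against sensitive. The cause was not tested.

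The replicate block, a pairing the labels do not state, gave Mdm2 probe 2 in TAF-el4 against TAF-tib42 an adjusted p of 0.0478 and Trp53inp1 probe 2 in TAF-el4 against TAF-tib48 one of 0.0621, and changed no other member call. Deviations of arrays with 1 number correlated at -0.19 to 0.16. Leaving out a replicate number, an array or a source gave these lowest and highest counts. These were TAF-el4 against TAF-tib6 5181 to 8343 probes (6 to 8 members), TAF-tib42 against TAF-tib6 6024 to 10018 probes (7 to 8 members) and TAF-tib48 against TAF-tib6 5726 to 9665 probes (5 to 8 members). Further ranges were TAF-el4 against NSF 4672 to 7062 probes (6 to 9 members), TAF-tib42 against NSF 5618 to 9742 probes (8 to 10 members) and TAF-tib48 against NSF 5756 to 10328 probes (3 to 9 members). The next were TAF-tib6 against NSF 1970 to 4723 probes (2 to 7 members), TAF-el4 against TAF-tib42 5817 to 9265 probes (8 to 10 members) and TAF-el4 against TAF-tib48 5929 to 9180 probes (6 to 9 members). Further ranges were TAF-tib42 against TAF-tib48 3159 to 5472 probes (6 to 8 members), any difference among the 5 sources 11425 to 16449 probes (9 to 12 members) and resistant against sensitive 0 to 11 probes (0 members). All 8 member calls of TAF-tib42 against TAF-tib6 and all 8 of TAF-el4 against TAF-tib42 were kept under the slide run block, without any 1 array and under the 6 other settings, as were 46 of all 77 calls over the 10 pairs. For Zmat3, though, the block could not adjust for the run in pairs of TAF-tib6 or TAF-tib48 with TAF-el4, TAF-tib42 or NSF. Dim probes (Trp53 probe 3, Trp53inp1 probe 2, Perp) limit what their ratios show.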
